A study of Bos taurus with 12 samples.

Results

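Most of the genes described here encode the factors that start, extend and end protein synthesis on the ribosome. All were taken by name alone: every gene whose symbol in the array's annotation begins with EIF or EEF, together with ETF1, GSPT1 and GSPT2. This gave 63 genes of the 15216 named genes on the array, measured by 94 probes. Of the 63, 3 carry the older symbols EIF2C1, EIF2C2 and EIF2C3, which today denote the Argonaute proteins AGO1, AGO2 and AGO3 of small RNA silencing. The other 60 are such factors or proteins named after them, the latter including the eIF2 kinases, EEF2K, the proteins that hold EIF4E back and EEF1E1. EIF3A, EIF4G1 and EIF1AX were not analysed here.

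In eukaryotic cells the eIF4F complex binds the cap of an mRNA and unwinds its leader, eIF2 brings the initiator tRNA, and eIF3 holds the small ribosomal subunit together with them until the start codon is found. The eEF1 factors then deliver aminoacyl-tRNAs, eEF2 moves the ribosome along, and eRF1 with its GTPase eRF3 releases the finished chain at a stop codon. Before the embryonic genome is switched on, a cleaving mammalian embryo lives on stored maternal mRNA, so control of translation takes the place of much transcriptional control.

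Bovine embryos at the 2-cell stage were split, and the fate of one blastomere in single culture, scored at day 7, classified its frozen sister. BL cells had sisters that became blastocysts, 2CB cells had sisters that stayed blocked as 2-cell-stage cells, and 8CB cells had sisters that were blocked later (the labels name the class 8CB but describe a block at 4 cells). Total RNA of 3 pools of 15 frozen blastomeres per class was amplified, and BL was hybridised on 6 two-colour Agilent arrays against 2CB and on 6 against 8CB, with both dye orientations for each of replicates 1 to 3. No strain, parent or age is given in the labels, and all cells came from embryos that were cut apart. Pooling hides differences between single embryos, and in such bulk RNA fewer cells with a transcript and less transcript per cell cannot be told apart.

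The deposited values are log ratios of the 2 channels, read as log2. Array medians lay between -0.0035 and 0.0096 and array SDs between 0.257 and 0.385, so ratios were already centred, and a change of total mRNA would not show. They hold no signal levels, so neither the identity of the cells nor the level of one gene against another could be checked. Which class is the numerator is not stated. Ratios were averaged over both dye orientations of a replicate number as deposited, which treats the swapped arrays as already turned to one direction. In that reading a fixed dye effect cancels, whereas if the arrays were never turned the same average holds the dye effect and the difference between the classes cancels. Deviations of swapped arrays from their group means, over all genes, correlated positively in 5 of 6 pairs (0.30 to 0.81) and negatively in replicate 3 of BL against 8CB (-0.20). Values on arrays with BL in Cy5 are written with 6 significant digits and those on arrays with BL in Cy3 with 9. As neither settles the direction, members are described by the positive or negative side of the ratio, and values are as deposited unless called turned. Turned values follow the labelled dyes. They would be BL over the arrested class if the arrays were never turned and hold Cy5 over Cy3, which is not stated. With Cy3 over Cy5 they would be the arrested class over BL. If the arrays were already turned, these values hold the dye effect and the difference between the classes cancels. Turned values stand beside the leading members and groups.

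As deposited, the 63 genes lay on both sides of 0 and at a larger median distance from it than all genes. The median ratio was 0.02 in both comparisons, against 0.01 over all genes in BL against 2CB and 0.0045 in BL against 8CB. The median distance from 0 was 0.17 (log2) for members and 0.08 for all genes in BL against 2CB, and 0.16 and 0.06 in BL against 8CB. Turned, it was 0.087 for members and 0.079 for all genes against 2CB, and 0.055 and 0.072 against 8CB, where members lay nearer to 0. An unadjusted p under 0.05 in limma was reached by 20 of 63 members in BL against 2CB, 11 positive and 9 negative, where 18.0% of all genes reached it, 8.54% positive and 9.48% negative. In BL against 8CB it was reached by 16 of 63, 10 positive and 6 negative, where 11.0% of all genes did, 5.61% positive and 5.41% negative. Those shares are 31.7% and 25.4% of the members. Without replicate 3, the count against 8CB was 7 of 63, where 4.5% of all genes passed. At an adjusted p under 0.05 limma called 0 of 15216 genes in either comparison, so no member passed. At an adjusted p under 0.10 it called 0.789% and 0.237% of all genes, and 0 members. One side was kept in all 3 averaged ratios by 36 of 63 members against 2CB (45.0% of all genes) and by 18 of 63 against 8CB (29.2% of all genes). On single arrays, 19 of 63 members kept one side on all 6 against 2CB (15.0% of all genes) and 12 of 63 on all 6 against 8CB (7.12% of all genes). The same held for 8 of 63 members on all 12, where 2.68% of all genes did: GSPT1, EIF4A3, EIF4B, EIF4E and EEF1G on the positive side, EIF3B, EIF3E and EEF1E1 on the negative.

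**Figure D1:**
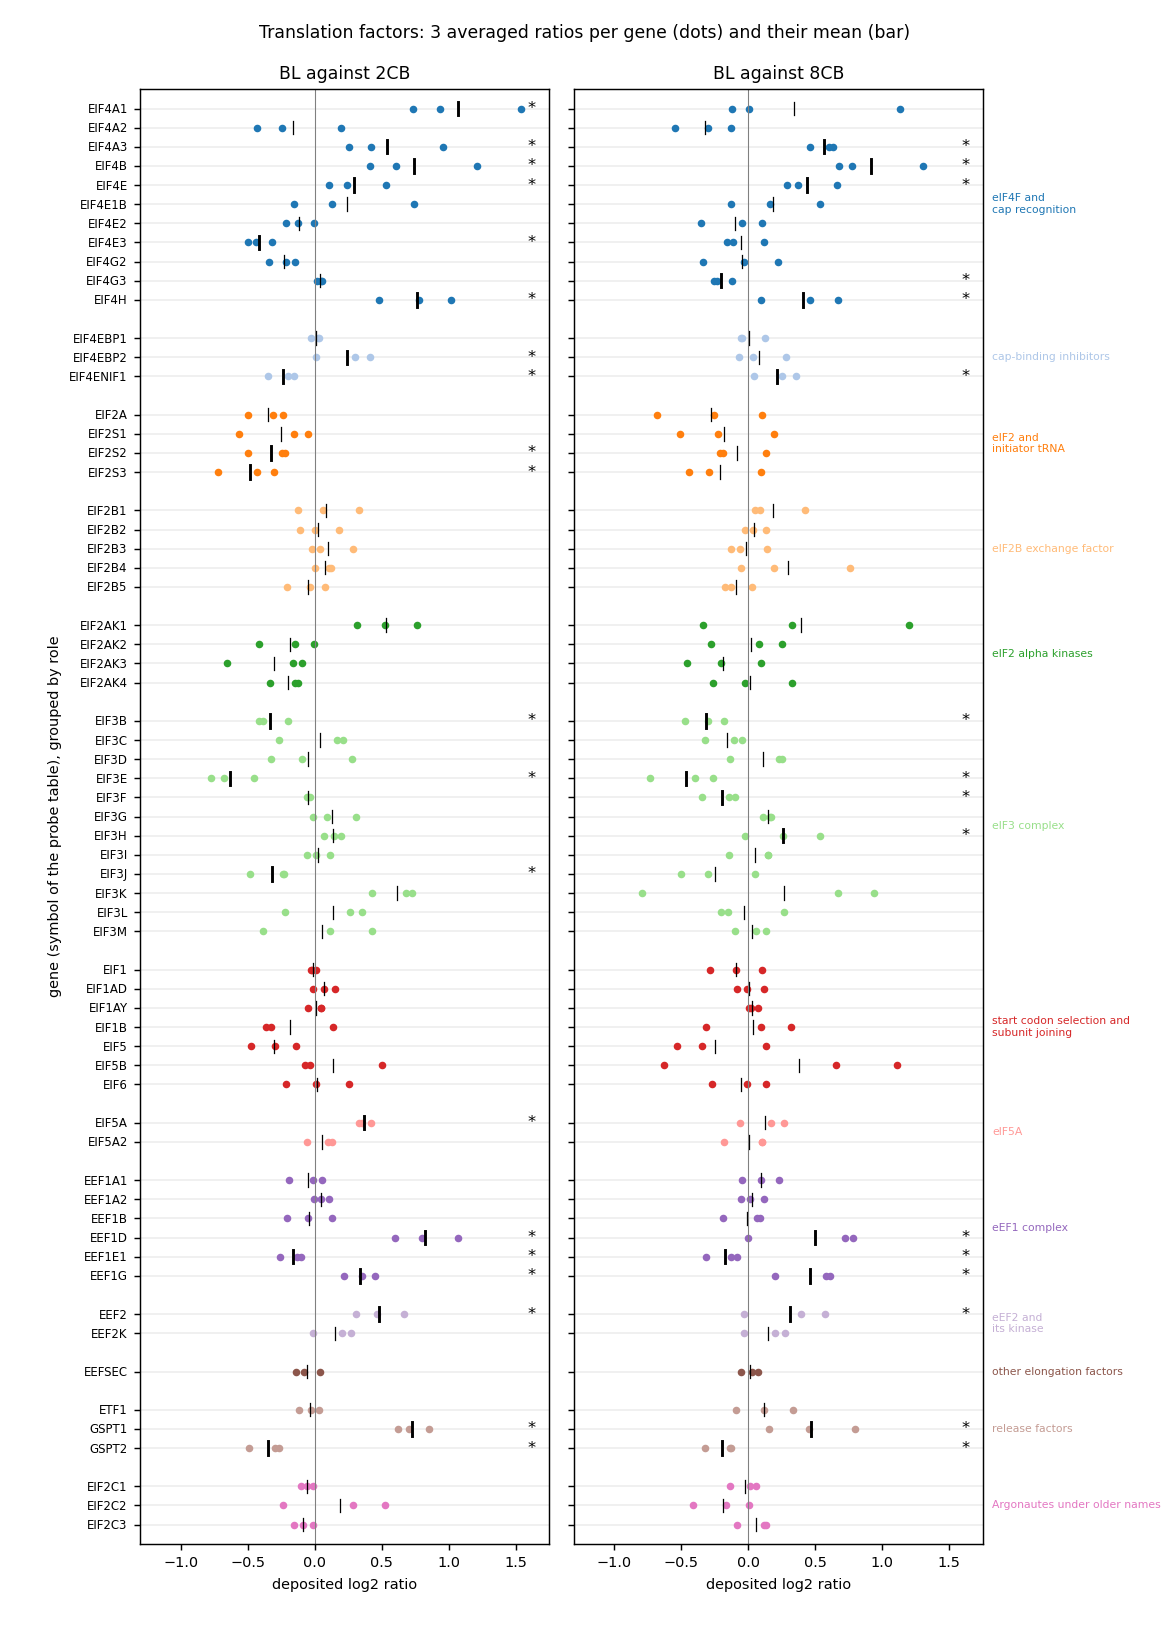
Deposited log2 ratios (x axis) of the 63 genes (y axis, grouped by role) in BL against 2CB (left) and BL against 8CB (right). Dots are the 3 averaged ratios, bars their mean, and thick bars with a star mark an unadjusted p under 0.05 in limma, reached by 20 genes on the left and 16 on the right. EIF4B, EIF4H, EIF4A3 and GSPT1 have means to the right of 0 in both panels, EIF4A2, EIF3B, EIF3E and GSPT2 to the left.

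Among the release factors the paralogues of eRF3 stood on opposite sides of the deposited ratio. GSPT1, the eRF3 GTPase that works with eRF1 at stop codons, had ratios of 0.85, 0.71 and 0.62 in BL against 2CB and of 0.16, 0.80 and 0.45 in BL against 8CB (replicates 1 to 3). All were positive, and the lowest was replicate 1 against 8CB. The means were 0.72 ± 0.12 (SE, n = 3), a 1.65-fold difference, and 0.47 ± 0.12, with adjusted p-values of 0.101 and 0.251 in limma. On the single arrays against 2CB, GSPT1 had 0.87, 0.62 and 0.53 with BL in Cy5 and 0.83, 0.79 and 0.71 with BL in Cy3, so both orientations lay on the positive side.

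GSPT2, a second eRF3 gene, had -0.49, -0.30 and -0.26 in BL against 2CB and -0.12, -0.32 and -0.14 in BL against 8CB. Every averaged ratio was negative, and none overlapped those of GSPT1. The means were -0.35 ± 0.06 and -0.19 ± 0.06 (SE, n = 3), with adjusted p-values of 0.107 and 0.354 in limma. Turned, GSPT1 and GSPT2 lay on the same side against 2CB, at -0.05 ± 0.06 and -0.06 ± 0.05, and at 0.03 ± 0.06 and -0.13 ± 0.05 against 8CB. ETF1, which encodes eRF1 and reads the stop codon itself, had 0.03, -0.03 and -0.12 against 2CB and 0.34, -0.09 and 0.12 against 8CB. It crossed 0 in both comparisons, with means of -0.04 ± 0.08 and 0.12 ± 0.08.

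The eIF4F group held the largest deposited ratio in each comparison, EIF4A1 against 2CB and EIF4B against 8CB. Of its 11 measured genes, the unadjusted threshold was reached by 5 positive genes and 1 negative gene in BL against 2CB. Of all genes, 8.54% and 9.48% did so on those sides. In BL against 8CB it was reached by 4 and 1, where 5.61% and 5.41% of all genes did. Turned, it was reached by 0 positive and 2 negative genes in each, with group medians of -0.05 and -0.02. That is 18.2% of the group in each, beside 28.3% and 24.0% of all genes. The 5 positive genes against 2CB were the helicase EIF4A1, its stimulating partners EIF4B and EIF4H, the exon junction helicase EIF4A3 and the cap-binding protein EIF4E. EIF4A1 was not among the 4 against 8CB.

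EIF4A1 had 0.93, 1.54 and 0.74 in BL against 2CB, the largest deposited mean of any member at 1.07 ± 0.27 (SE, n = 3; 2.1-fold; adjusted p = 0.151 in limma). In BL against 8CB it had -0.12, 1.14 and 0.01, so its mean there, 0.34 ± 0.27, rested on replicate 2. Its turned means had the other sign, -0.19 ± 0.11 and -0.13 ± 0.11, and did not pass. EIF4B had 0.41, 1.21 and 0.61 against 2CB and 0.78, 1.31 and 0.67 against 8CB. Replicate 2 was the highest in both, and the means were 0.74 ± 0.18 and 0.92 ± 0.18 (1.67-fold and 1.89-fold), the second being the largest ratio of a member against 8CB (adjusted p = 0.186 in limma). EIF4H had 0.48, 1.02 and 0.78 against 2CB and 0.10, 0.67 and 0.46 against 8CB, with means of 0.76 ± 0.14 and 0.41 ± 0.14 (turned, 0.11 ± 0.05 and 0.10 ± 0.05, not past the threshold). Both probes of EIF4H were positive in both comparisons (0.46 and 1.06 against 2CB, 0.30 and 0.51 against 8CB).

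EIF4A3, which marks exon junctions rather than unwinding leaders, had 0.95, 0.25 and 0.42 against 2CB and 0.63, 0.46 and 0.60 against 8CB, with means of 0.54 ± 0.13 and 0.56 ± 0.13. EIF4E had 0.24, 0.53 and 0.10 against 2CB and 0.37, 0.66 and 0.29 against 8CB as the mean of 3 probes, with means of 0.29 ± 0.10 and 0.44 ± 0.10. A pair of its probes read close together (0.61 and 0.65 against 2CB, 0.67 and 0.70 against 8CB), while the other read -0.38 and -0.05. The gene's mean is therefore smaller than what most of its probes show.

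On the negative side of the same group stood EIF4E3, a cap-binding relative of EIF4E. It had -0.49, -0.32 and -0.44 in BL against 2CB, with a mean of -0.42 ± 0.07 (SE, n = 3) and the smallest p of any member (adjusted p = 0.101 in limma). Against 8CB it had 0.12, -0.12 and -0.16 and a mean of -0.05 ± 0.07. EIF4G3, a large scaffold of the complex, had -0.12, -0.23 and -0.25 against 8CB, a mean of -0.20 ± 0.04 with an adjusted p of 0.201 in limma, and 0.06, 0.05 and 0.02 against 2CB. EIF4G2, a scaffold that lacks the binding site for EIF4E, had -0.21, -0.34 and -0.15 against 2CB and 0.22, -0.33 and -0.03 against 8CB.

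The rest of the group did not reach the threshold in either comparison. The helicase EIF4A2 had means of -0.16 ± 0.13 against 2CB and -0.32 ± 0.13 against 8CB, on the side opposite to EIF4A1. The weak cap binder EIF4E2 had -0.11 ± 0.09 and -0.10 ± 0.09, and the oocyte form EIF4E1B had 0.24 ± 0.19 and 0.19 ± 0.19, with replicate 2 far above the others in both comparisons (0.74 and 0.53). Of the proteins that hold EIF4E back, EIF4EBP1 lay at 0.01 ± 0.05 in both comparisons. EIF4EBP2 lay at 0.24 ± 0.10 against 2CB, past the unadjusted threshold, and at 0.08 ± 0.10 against 8CB.

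**Figure D2:**
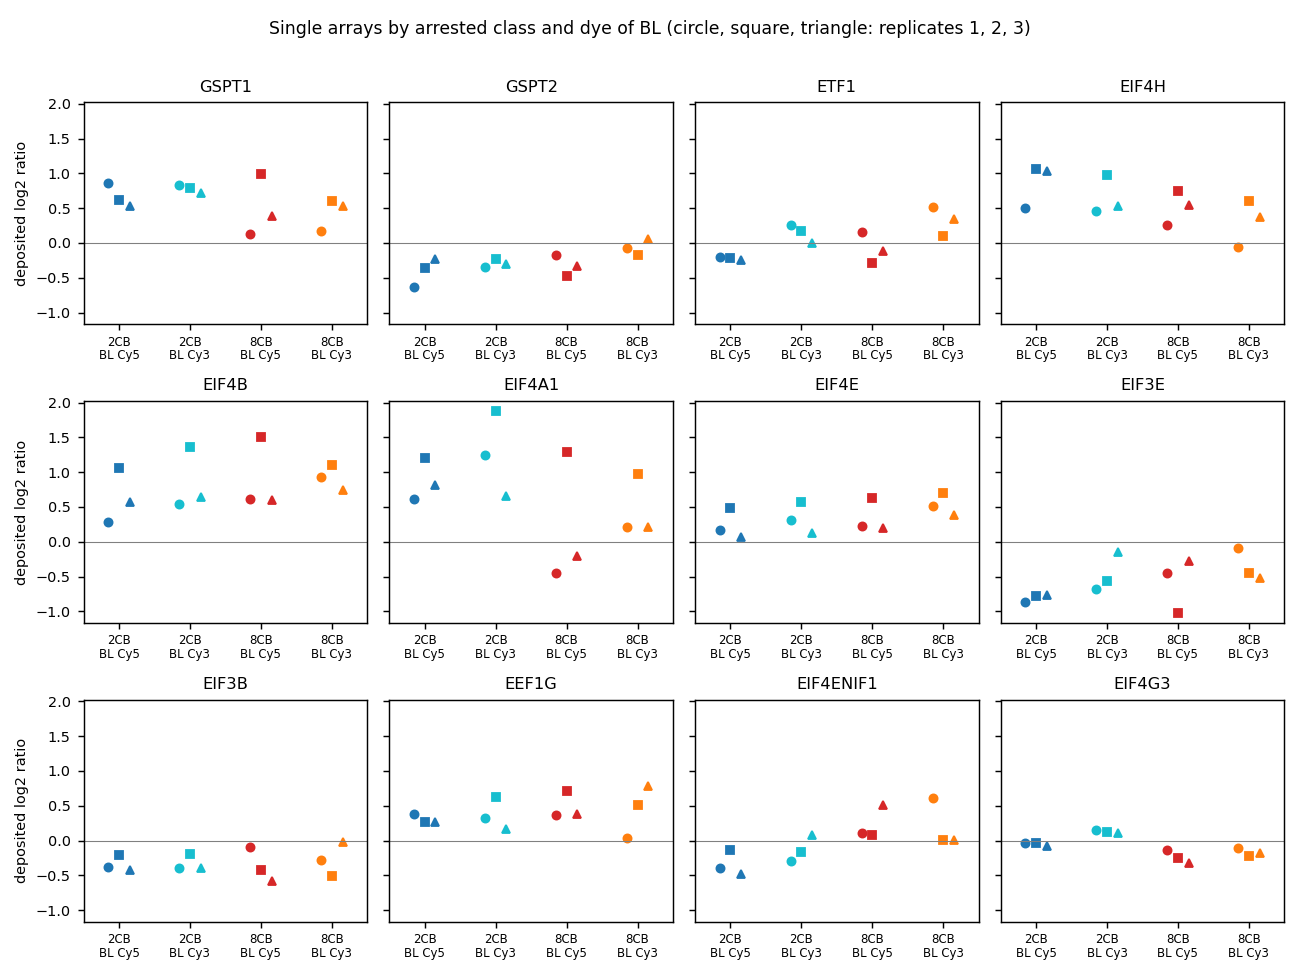
Deposited log2 ratio (y axis) of 12 members on each array, by arrested class and by the dye of BL (x axis); circles, squares and triangles are replicates 1, 2 and 3. GSPT1, EIF4B, EIF4E and EEF1G are positive and EIF3E and EIF3B negative on all 12 arrays, whereas ETF1 lies lower with BL in Cy5 than with BL in Cy3 in every replicate pair.

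The eIF3 complex, which spans the small subunit, had members on both sides. Of 12 measured subunits, 3 reached the threshold against 2CB, all negative, and 4 against 8CB, 3 of them negative. These are 25% and 33.3% of the subunits, beside 18.0% and 11.0% of all genes. Turned, they were 2 and 1 of 12, beside 28.3% and 24.0% of all genes. EIF3E had -0.78, -0.67 and -0.45 against 2CB and -0.27, -0.73 and -0.40 against 8CB. It was negative on all 12 arrays, with means of -0.63 ± 0.10 and -0.46 ± 0.10 (SE, n = 3; adjusted p = 0.101 and 0.217 in limma), the lowest deposited mean of any member in each comparison. Turned, it lay at -0.17 ± 0.08 and -0.12 ± 0.08 and did not pass; EIF2A against 2CB (-0.29) and EIF5B against 8CB (-0.30) were then the lowest. EIF3B, a core subunit, had -0.39, -0.20 and -0.41 against 2CB and -0.18, -0.47 and -0.30 against 8CB, with means of -0.33 ± 0.07 and -0.32 ± 0.07.

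The loosely held subunit EIF3J lay at -0.32 ± 0.11 against 2CB, past the threshold, and at -0.25 ± 0.11 against 8CB, where replicate 1 was positive (0.05). EIF3F had -0.35, -0.14 and -0.10 against 8CB, a mean of -0.20 ± 0.06 over 4 probes that ran from -0.56 to 0.23. EIF3H, with 0.53, -0.02 and 0.26 against 8CB, was the positive one of the 4, at 0.26 ± 0.10. Against 2CB, EIF3F lay at -0.05 ± 0.06 and EIF3H at 0.14 ± 0.10. EIF3K had 0.43, 0.72 and 0.68 against 2CB but -0.79, 0.94 and 0.67 against 8CB, and its mean of 0.61 ± 0.32 against 2CB did not pass, since the spread is shared by both comparisons. The means of EIF3C, EIF3D, EIF3G, EIF3I, EIF3L and EIF3M lay between -0.05 and 0.13 against 2CB and between -0.16 and 0.15 against 8CB.

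The eIF2 subunits EIF2S1, EIF2S2 and EIF2S3 were grouped with EIF2A, a separate protein despite its name. All 4 genes lay on the negative side of the deposited ratio in both comparisons. Of all 15216 genes, 6967 lay there against 2CB and 7211 against 8CB. EIF2S3, the subunit that binds the initiator tRNA, had -0.72, -0.43 and -0.31 in BL against 2CB, with a mean of -0.49 ± 0.12 (SE, n = 3; adjusted p = 0.15 in limma). EIF2S2, the beta subunit, had -0.22, -0.25 and -0.50 there, with a mean of -0.32 ± 0.09 (adjusted p = 0.168 in limma). These 2 of the 4 reached the unadjusted threshold, where 18.0% of all genes did. EIF2S1, the alpha subunit that stress kinases phosphorylate, lay at -0.25 ± 0.15, and EIF2A at -0.35 ± 0.14. In BL against 8CB the 4 means ran from -0.28 to -0.09, none passed, and replicate 1 was positive for each, from 0.10 to 0.19. Turned, 3 of the 4 were negative in each comparison. EIF2S2 was then positive against 2CB (0.10 ± 0.07) and EIF2S1 was near 0 against 8CB (0.0060 ± 0.07). As deposited, the 2 probes of EIF2S2 lay at -0.16 and -0.49 against 2CB and on both sides, at 0.011 and -0.18, against 8CB. Turned, they disagreed in both comparisons, at -0.13 and 0.33 against 2CB and at -0.28 and 0.16 against 8CB. EIF2S1 lay at -0.08 ± 0.07 against 2CB, EIF2S2 at -0.06 ± 0.07 against 8CB, and EIF2S3 at -0.14 ± 0.13 and -0.19 ± 0.13.

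The exchange factor eIF2B recharges eIF2 with GTP. Its 5 subunits lay between -0.05 and 0.10 against 2CB and between -0.09 and 0.30 against 8CB. Of these, 0 of 5 passed, where 18.0% and 11.0% of all genes did. The highest against 8CB was EIF2B4, with 0.19, -0.05 and 0.76. The probes of EIF2B2 and of EIF2B5 lay on both sides of 0 in each comparison. Of the 4 kinases that shut eIF2 down, 0 passed in either comparison, beside the same shares of all genes. EIF2AK1, the haem-regulated kinase, had the widest values of the kinases against 8CB, with -0.34, 1.20 and 0.33. Against 2CB it had 0.52, 0.76 and 0.31. The double-stranded RNA kinase EIF2AK2, the endoplasmic reticulum kinase EIF2AK3 and the amino acid sensor EIF2AK4 lay at -0.19 ± 0.12, -0.30 ± 0.14 and -0.20 ± 0.11 against 2CB, and at 0.02 ± 0.12, -0.19 ± 0.14 and 0.01 ± 0.11 against 8CB.

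Of the 7 genes for start codon selection and subunit joining, 0 passed in either comparison, where 18.0% and 11.0% of all genes did. EIF5, which triggers GTP hydrolysis on eIF2, was the nearest, with -0.14, -0.47 and -0.29 against 2CB and 0.13, -0.53 and -0.34 against 8CB, and its 3 probes shared their sign in each comparison. EIF5B, the GTPase that joins the subunits, had the widest spread of these genes, with 1.11, -0.63 and 0.66 against 8CB. EIF6, which keeps the large subunit apart, had 1 probe on each side in both comparisons (-0.34 and 0.38 against 2CB, -0.47 and 0.37 against 8CB), so its means of 0.02 and -0.05 describe neither probe. EIF1, EIF1AD and EIF1AY lay between -0.01 and 0.07 against 2CB and between -0.09 and 0.03 against 8CB. EIF1B lay at -0.19 ± 0.15 and 0.03 ± 0.15.

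EIF5A, which carries the modified lysine hypusine and eases peptide bond formation at difficult sequences, had the tightest values of the members that passed against 2CB. Its ratios were 0.42, 0.35 and 0.33, with a mean of 0.37 ± 0.07 (SE, n = 3; adjusted p = 0.107 in limma). The mean came from 1 probe at 0.68, the other being at 0.05. Against 8CB it had -0.06, 0.27 and 0.17 and did not pass. Its relative EIF5A2 lay at 0.06 ± 0.07 and 0.01 ± 0.07.

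The elongation factors showed a split within the eEF1 complex. EEF1D and EEF1G were positive and passed in both comparisons. The tRNA carriers EEF1A1 and EEF1A2, and the subunit EEF1B2 (EEF1B in the annotation), did not pass in either. EEF1D had 0.60, 1.07 and 0.80 against 2CB, with a mean of 0.82 ± 0.17 (SE, n = 3; 1.77-fold; adjusted p = 0.12 in limma). Against 8CB its replicate 1 was at -0.0015 and replicates 2 and 3 at 0.79 and 0.72, with a mean of 0.50 ± 0.17. EEF1G had 0.35, 0.45 and 0.22 against 2CB and 0.20, 0.61 and 0.58 against 8CB, with means of 0.34 ± 0.09 and 0.46 ± 0.09, and was positive on all 12 arrays. Turned, EEF1D lay at 0.03 ± 0.07 and -0.01 ± 0.07 and EEF1G at -0.04 ± 0.08 and 0.02 ± 0.08. Of the 6 eEF1 genes, 0 then passed, where 28.3% and 24.0% of all genes did.

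EEF1A1, EEF1A2 and EEF1B2 lay between -0.05 and 0.05 against 2CB and between -0.01 and 0.10 against 8CB. EEF1E1, a scaffold of the aminoacyl-tRNA synthetase complex despite its name, had -0.13, -0.26 and -0.10 against 2CB and -0.09, -0.31 and -0.13 against 8CB, and passed on the negative side in both (-0.17 ± 0.06 in each). EEF2, the translocase, had 0.47, 0.66 and 0.31 against 2CB and -0.03, 0.57 and 0.39 against 8CB, with means of 0.48 ± 0.12 and 0.31 ± 0.12, both past the unadjusted threshold (turned, -0.0088 ± 0.06 and -0.05 ± 0.06). One of its probes carried this, at 0.96 and 0.59, while the other read -0.0032 and 0.033. Its inhibitor EEF2K lay at 0.15 ± 0.08 in both, and EEFSEC, which brings the selenocysteine tRNA, at -0.06 ± 0.05 and 0.02 ± 0.05. The Argonautes listed as EIF2C1, EIF2C2 and EIF2C3 lay between -0.08 and 0.19 against 2CB and between -0.19 and 0.05 against 8CB. Of the 3, 0 passed, where 18.0% and 11.0% of all genes did.

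Probes of one gene often disagreed, as they did for EIF4E, EIF6 and EEF2. Of 23 members with 2 probes or more, the probes lay on both sides of 0 for 11 in BL against 2CB and for 14 in BL against 8CB. The other 40 members rest on 1 probe each, among them GSPT1, GSPT2, EIF4A1, EIF4B, EIF3E, EIF3B, EEF1D and EEF1G, so no second probe checks them. What separates the probes (transcript ends, related genes, signal near background) was not tested, since no probe sequence or signal level was used here.

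**Figure D3:**
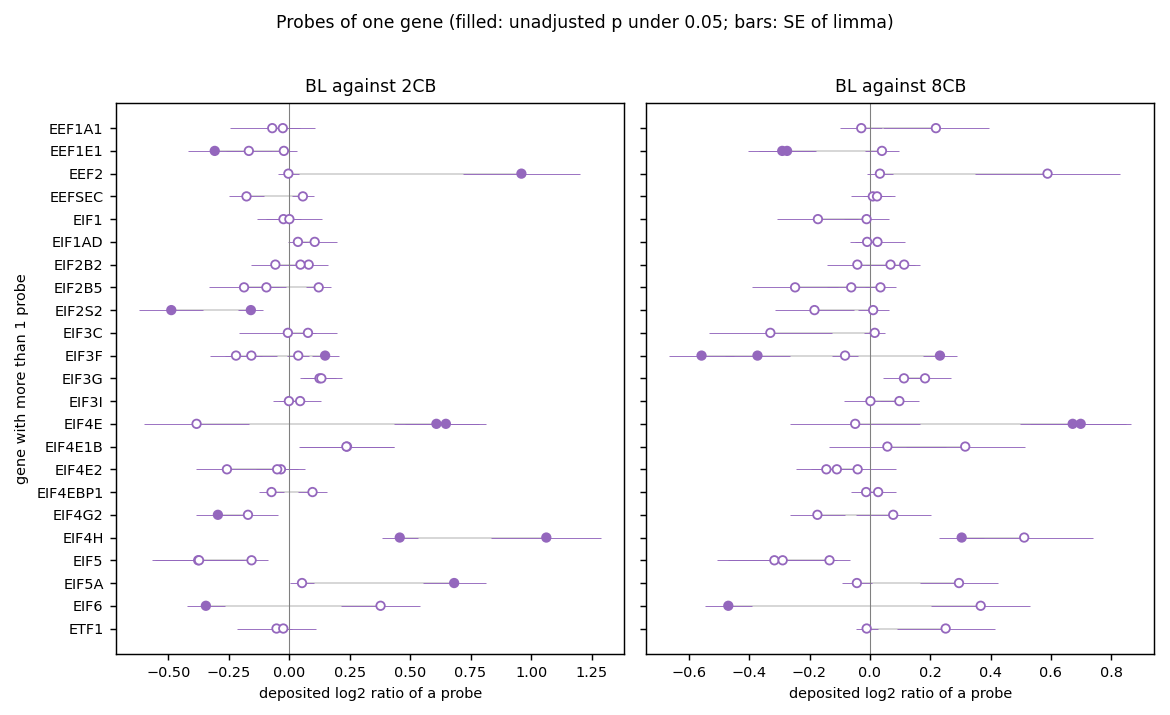
Deposited log2 ratio (x axis) of every probe of the 23 members with more than 1 probe (y axis), with SE bars; filled circles reached an unadjusted p under 0.05. EIF4H has both probes on the positive side in both comparisons, while EIF4E, EIF3F and EIF6 have probes on both sides.

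The 2 comparisons share the BL class, so they are not independent of each other, and 2CB and 8CB met only through BL. The difference between the comparisons (ratio against 2CB minus ratio against 8CB) reached an unadjusted p under 0.05 for 4 of 63 members, where 4.25% of all genes did, and limma called 0 genes at an adjusted p under 0.05. EIF4ENIF1, which carries EIF4E into the nucleus and into repressed mRNA granules, had -0.35, -0.15 and -0.20 in BL against 2CB and 0.36, 0.04 and 0.25 in BL against 8CB. The groups did not overlap, and the difference was -0.45 ± 0.10 (SE; adjusted p = 0.932 in limma). The others were EIF4E3 (-0.36 ± 0.09), EIF4G3 (0.24 ± 0.06) and EIF5A (0.24 ± 0.10). With the replicate number as a block, 10 members reached the threshold, where 9.4% of all genes did, and 3 of the 4 were among them. Opposite sides in all 3 replicates of each comparison were held by EIF4ENIF1 and EIF4G3, 2 of 63 members, where 1.98% of all genes held them. On the single arrays against 2CB, EIF4G3 was positive with BL in Cy3 and negative with BL in Cy5.

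Turned by the labelled dyes, different members came forward. A positive value would here mean more in BL cells if the arrays were never turned before and hold Cy5 over Cy3. It would be a dye effect if they were already turned. An unadjusted p under 0.05 was then reached by 12 of 63 members in BL against 2CB, 4 positive and 8 negative, where 28.3% of all genes did, 13.3% positive and 15.0% negative. Against 8CB it was reached by 7 of 63, 1 positive and 6 negative, where 24.0% of all genes did, 11.3% positive and 12.7% negative. For the difference between the comparisons it was 0 of 63, where 0.973% of all genes did. Those shares are 19.0% and 11.1% of the members. None of the 12 was among the 20 of the deposited reading, and 2 of the 7 (GSPT2 and EIF4E) were among the 16.

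In this reading 3 members passed an adjusted p under 0.05 in limma against 2CB and 1 against 8CB, where 5.96% and 2.94% of all genes did. The eRF1 gene ETF1 passed in both. Its turned ratios were -0.23, -0.19 and -0.12 in BL against 2CB and -0.19, -0.19 and -0.23 in BL against 8CB. They were negative in every replicate, with means of -0.18 ± 0.04 and -0.20 ± 0.04 (SE, n = 3; adjusted p = 0.041 and 0.043). Both of its probes gave this side, at -0.21 and -0.15 against 2CB and at -0.24 and -0.16 against 8CB. Behind these lie array values of -0.20, -0.22 and -0.24 with BL in Cy5 and of 0.26, 0.17 and -0.0006 with BL in Cy3 against 2CB.

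The scaffold EIF4G2 had turned ratios of -0.22, -0.20 and -0.34 against 2CB, a mean of -0.25 ± 0.04 (adjusted p = 0.026 in limma), and of -0.21, -0.11 and -0.14 against 8CB (-0.15 ± 0.04, adjusted p = 0.096). It was negative in all of them. EIF3G, an RNA-binding eIF3 subunit, had 0.12, 0.22 and 0.21 against 2CB, a mean of 0.18 ± 0.04 (adjusted p = 0.039 in limma), and 0.18, 0.16 and 0.13 against 8CB (0.16 ± 0.04, adjusted p = 0.07). Its probes disagreed: 1 stood at 0.32 and 0.41, the other at 0.05 and -0.09.

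The other members past the unadjusted threshold in the turned reading against 2CB included 3 of the 4 eIF2 kinases, beside 28.3% of all genes. Against 8CB it was 1 of 4 kinases, beside 24.0% of all genes. The 3 kinases lay on both sides against 2CB, EIF2AK1 at 0.27 ± 0.09, EIF2AK4 at 0.28 ± 0.08 and EIF2AK2 at -0.16 ± 0.04. They were joined by EIF4EBP1 (0.16 ± 0.05), EIF2A (-0.29 ± 0.08), EIF5 (-0.23 ± 0.07), EIF3C (-0.15 ± 0.05), EIF4G3 (-0.09 ± 0.03) and EIF2B1 (-0.09 ± 0.04). Against 8CB they were EIF2A (-0.21 ± 0.08), GSPT2 (-0.13 ± 0.05), EIF2AK2 (-0.12 ± 0.04) and EIF4E (-0.09 ± 0.04). GSPT1, EIF4A3 and EIF4B, with deposited means of 0.47 to 0.92, lay between -0.11 and 0.03 when turned.

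**Figure D4:**
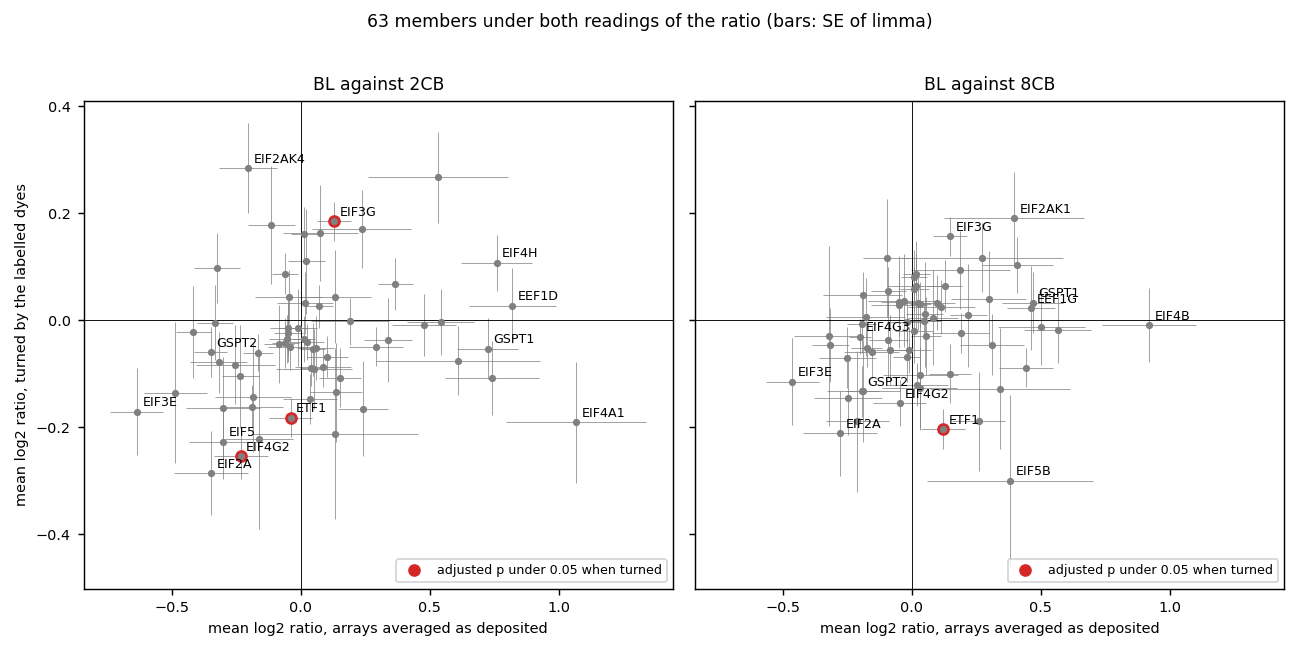
Mean log2 ratio of the 63 members averaged as deposited (x axis) and turned by the labelled dyes (y axis), with SE bars. Red points, ETF1, EIF4G2 and EIF3G on the left and ETF1 on the right, passed an adjusted p under 0.05 when turned; the members with the largest deposited ratios, such as EIF4A1 and EIF4B, did not.

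Neighbouring genes of translation control were read in the same fits, where 18.0% and 11.0% of all genes reached the unadjusted threshold as deposited and 28.3% and 24.0% turned. Of 15 genes of mTOR and cap kinase signalling, 5 reached the unadjusted threshold in BL against 2CB, 3 positive and 2 negative, among them the kinase MTOR (-0.53 ± 0.13) and its target AKT1S1 (0.29 ± 0.10). Against 8CB it was 1 of 15, the EIF4E kinase MKNK2 (-0.29 ± 0.08). Turned by the dyes, 9 of 15 reached it against 2CB, 2 positive and 7 negative, and 5 of 15 against 8CB, 1 positive and 4 negative. RICTOR then passed an adjusted p under 0.05 in limma in both comparisons (-0.23 ± 0.04 and -0.25 ± 0.04), RHEB against 2CB (0.36 ± 0.06) and RPS6KA3 against 8CB (-0.31 ± 0.06).

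Of 8 genes for ribosome recycling and rescue, 3 reached the threshold against 2CB, all negative, and 4 against 8CB, 3 of them negative. The recycling ATPase ABCE1 lay at -0.50 ± 0.11 and -0.48 ± 0.11, and HBS1L, a GTPase related to eRF3 that frees stalled ribosomes, at -0.55 ± 0.11 and -0.35 ± 0.11. Its partner PELO, a relative of eRF1, lay at 0.17 ± 0.10 and 0.25 ± 0.10. Of 9 mitochondrial translation factors, 4 reached the threshold against 2CB, all negative, led in size by the initiation factor MTIF2 (-0.62 ± 0.22), and 0 of 9 against 8CB. Turned, 2 of 8 recycling and rescue genes reached it in each comparison, all negative, and 2 of 9 and 1 of 9 mitochondrial factors, also negative.

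Of 13 poly(A)-binding proteins and partners, 4 reached it against 2CB and 1 against 8CB (turned, 1 and 3). CPEB1, which activates stored oocyte mRNAs, lay at 0.41 ± 0.11 and 0.25 ± 0.11, and PAIP2, an inhibitor of poly(A)-binding protein, at -0.62 ± 0.25 and -0.25 ± 0.25. Of 8 integrated stress response genes 3 reached it against 2CB, 1 positive and 2 negative. Against 8CB 1 did, on the positive side (turned, 2 and 3, all negative). The eIF2 phosphatase subunit PPP1R15A did so in both (0.33 ± 0.12 and 0.50 ± 0.12), and the transcription factor ATF4 in neither (0.07 ± 0.09 and 0.08 ± 0.09). Of the enzymes that make hypusine, DHPS lay at 0.29 ± 0.10 and 0.17 ± 0.10 and DOHH at -0.07 ± 0.04 and -0.09 ± 0.04.

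Markers of the cell and of its neighbours were read alike, beside 18.0% and 11.0% of all genes as deposited and 28.3% and 24.0% turned. As deposited, of 11 oocyte and early embryo markers, 9 reached the unadjusted threshold in BL against 2CB, 8 of them positive, and 1 in BL against 8CB, with a mean over the list of 0.20 to 0.54 in the 3 replicates against 2CB and of -0.05 to 0.39 against 8CB. BMP15 lay at 0.98 ± 0.25 and 0.55 ± 0.25 and the linker histone H1-8 at 0.69 ± 0.17 and 0.31 ± 0.17. Markers of cumulus and granulosa cells reached it for 1 of 15 genes in each comparison, with list means of -0.03 to 0.07 and of -0.06 to -0.03. Sperm markers reached it for 2 of 10 and 0 of 10. Turned, the counts against 2CB and 8CB were 1 and 1 of 11 oocyte and early embryo markers, 5 and 1 of 15 cumulus and granulosa markers, and 2 and 1 of 10 sperm markers. The part of these in the members' ratios was not tested.

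**Figure D5:**
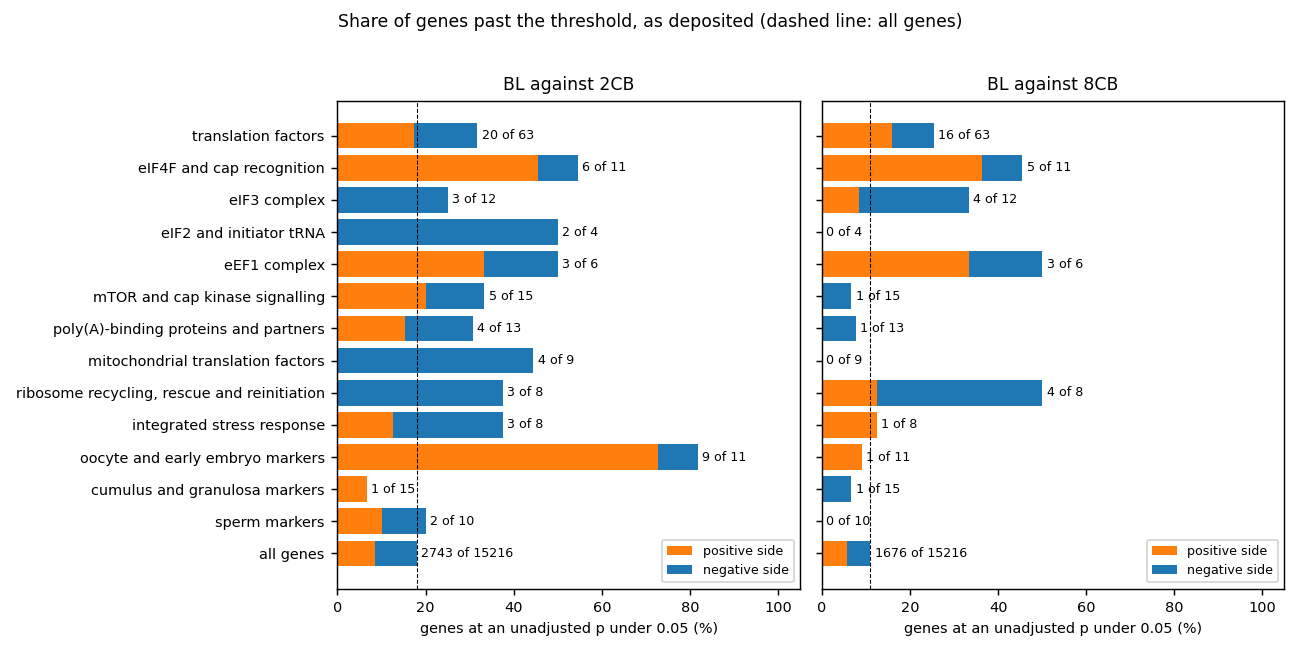
Share of genes at an unadjusted p under 0.05 (x axis, percent) in the members, in some of their roles, in neighbouring lists and in marker lists (y axis), as deposited, split by side; the dashed lines mark 18.0% and 11.0% of all genes. Members stand at 20 of 63 and 16 of 63, and 9 of 11 oocyte and early embryo markers passed in BL against 2CB.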

How the data were processed

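Each array gave the deposited log ratio of its 2 channels for every probe, taken as log2. Its base, background correction and normalization by the authors are not stated in the labels, and the submitters' processing notes name limma with no version. Of 43795 rows, 2 were left out; 21790 probes had 1 symbol, 0 had several and 22003 had none. Older symbols were replaced through the RefSeq gene table (1524 probes updated, 241 kept old).

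Probes were averaged per gene, then the swapped arrays of a replicate number. These 6 averaged ratios entered limma 3.58.1 (R 4.3.3; lmFit, then eBayes), with 1 coefficient per comparison, a shared spread, two-sided tests and Benjamini-Hochberg adjustment over 15216 genes. Each SE comes from that fit. Members were counted at an unadjusted p under 0.05. The text gives full values for the 10 members per comparison that had the lowest p among those whose 3 ratios shared a sign, and for the release factors. Members, lists and thresholds were chosen with earlier results of these data known.

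Same-numbered averaged ratios of both comparisons deviated together from their means (r = 0.28, 0.39 and 0.37 over genes), so the numbers pair the samples by this measure. The labels' protocols call the pools independent. The number of arrays limits the precision. Plots used Python 3.11.15 and matplotlib 3.10.9.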

Additional observations from a re-analysis of the deposited data

Results flagged for a closer look

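A pair of members lay on one side in every averaged ratio of one comparison and on the other side in every averaged ratio of the other. EIF4ENIF1 was negative in 3 of 3 replicates of BL against 2CB and positive in 3 of 3 of BL against 8CB, a difference of -0.45 ± 0.10 on the log2 scale. EIF4G3 was positive in 3 of 3 against 2CB and negative in 3 of 3 against 8CB, a difference of 0.24 ± 0.06. Its averages against 2CB joined arrays of both signs, and their mean was 0.04 ± 0.04. Those arrays read 0.16, 0.13 and 0.11 with BL in Cy3, and -0.04, -0.03 and -0.07 with BL in Cy5. Against 8CB all its arrays were negative. Opposite sides of this kind were held by 1.98% of all genes. The difference itself was tested in limma and did not pass for either (adjusted p = 0.932). Turned by the labelled dyes the differences were -0.11 ± 0.14 and -0.06 ± 0.05. Both genes have 1 probe.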

How the results depend on the processing

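Shares of all genes are given in brackets after each count of members. The 20 members past an unadjusted p under 0.05 in BL against 2CB (18.0%) numbered 12 when turned by the labelled dyes (28.3%), 13 at an unadjusted p under 0.01 (6.1%) and 0 at an adjusted p under 0.10 (0.789%), and 16 to 21 with each replicate left out in turn (9.75% to 17.5%). The 16 against 8CB (11.0%) numbered 7 (24.0%), 8 (3.67%) and 0 (0.237%) under those settings and 7 to 22 with a replicate left out (4.5% to 14.3%), the 7 being without replicate 3. The 4 for the difference (4.25%) numbered 0 turned (0.973%), 1 on the arrays with BL in Cy5 alone (2.79%), 0 at an adjusted p under 0.10 and 3 to 5 with a replicate left out (1.65% to 8.03%). With the replicate number as a block they numbered 10 as a fixed term (9.4%) and 7 as a random one over the 12 arrays (5.53%), where the other counts were 24 against 2CB (21.5%) and 17 against 8CB (13.6%). Median centring, scaling, quantile normalization, robust eBayes, the median of the probes, the symbols of the probe table, separate fits and the probe-level fit kept the counts between 19 and 26 against 2CB (17.2% to 23.2%) and between 12 and 17 against 8CB (9.6% to 15.5%). The median ratio over the members against 2CB was -0.05 when turned. Among the members chosen by the rule, turning reversed the sign of GSPT1 (-0.053), EIF4A3 (-0.0032) and EIF4B (-0.11) against 2CB, and of EIF4B (-0.0090), EIF4A3 (-0.018), EIF4E (-0.089) and ETF1 (-0.20) against 8CB. ETF1 against 2CB was 0.14 on the arrays with BL in Cy3 alone and -0.073 to 0.0028 with a replicate left out, the positive value being without replicate 3, and against 8CB it was -0.083 on the arrays with BL in Cy5 alone. The cause was not tested. The number of arrays and unknown signal over background limit all of these.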
